A study of Mus musculus with 4 samples.

Results

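The Spalt genes Sall4, Sall1 and Sall3 encode zinc finger transcription factors, and TBX5 binding around each of them was described in the mouse forelimb bud. Peaks were taken from 1 window per gene by the position of their summit, the base of highest signal, and not by their strength. The windows ran from 168200000 to 169000000 on chromosome 2 for Sall4, from 91000000 to 92200000 on chromosome 8 for Sall1 and from 80700000 to 81600000 on chromosome 18 for Sall3. They held 39 of the 11224 peaks of the list, 14 in the Sall4 window, 17 in the Sall1 window and 8 in the Sall3 window.

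Forelimb buds were collected at embryonic day 10.5 from wild-type embryos of outbred ICR mice. Crosslinked, sheared chromatin was precipitated with a polyclonal antibody raised against TBX5 in 2 replicate libraries, and 2 further libraries were input chromatin, sequenced without precipitation. The labels do not say how many embryos went into a library or whether the replicates were separate collections. Whole forelimbs were used, so the list does not tell which cells of the bud carried a bound site. Both ChIP replicates are represented by 1 list, with 1 value per peak and no value for input, so nothing below has a spread between replicates and no p-value is given. The measure of agreement between the replicates is the score of each peak, a scaled irreproducible discovery rate (IDR, the expected share of irreproducible peaks among those ranked at least as high). Scores in the list run from 540, an IDR of 0.05, to 1000, an IDR of 0.00391 or below. Signal value is the strength given by the authors' peak caller on a scale that is not stated, and read depth per library is unknown.

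TBX5 is the T-box factor that marks the forelimb field and is required for the forelimb to grow out. Spalt proteins are nuclear zinc finger factors that mostly repress transcription, and they act in limb, heart and kidney development, with overlapping roles among members in the limb. Sall4 is known as a gene downstream of Tbx5 in the forelimb bud, and loss of a functional copy of the human counterpart of Tbx5 or of Sall4 gives syndromes with defects of the thumb side of the arm. Human SALL1 is the gene of a syndrome that includes thumb malformations, and Sall3 is the least studied of these genes in the limb.

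Gene positions in the windows are approximate, at 168.58 Mb for Sall4, 91.55 Mb for Sall1 and 81.16 Mb for Sall3, and assume that the list is on mouse build mm9. The labels name mm10, which is GRCm38. On chromosome 8, 22 summits lay up to 1.81 Mb beyond the last protein-coding gene of the RefSeq table of GRCm38.p6, and none did so on chromosomes 2 and 18. Sall4 and Sall3 lie inside the same windows at their GRCm38.p6 positions, but Sall1 does not. The Sall1 results therefore rest on reading the list as mm9: with the window moved to where GRCm38.p6 has Sall1, it would hold 1 peak in place of 17. The corresponding counts were 13 for Sall4 and 7 for Sall3. Because the table is on another build, no peak was placed in a promoter, exon, intron or UTR. By gene order in that table, the nearest protein-coding neighbours are Atp9a and Zfp64 for Sall4, Cyld and Tox3 for Sall1, and Atp9b and Galr1 for Sall3. Beyond Atp9a lies Nfatc2 and beyond Atp9b lies Nfatc1, so Sall4 and Sall3 have paralogous neighbours in the same order on the side of lower coordinates. A window peak may belong to such a neighbour, and which gene a peak acts on was not tested.

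Peaks were denser in the windows around Sall4 and Sall1 than in the rest of their chromosomes taken as a whole. The Sall4 window held 17.5 peaks per Mb, against 5.40 per Mb in the rest of the stretch of chromosome 2 between the first and last summit, a ratio of 3.24 (95% binomial interval 1.77 to 5.47). The Sall1 window held 14.2 peaks per Mb against 4.73 in the rest of chromosome 8, a ratio of 3.0 (1.73 to 4.84). For Sall3 the values were 8.89 and 5.61 peaks per Mb, a ratio of 1.58 (0.680 to 3.15). These intervals cover the error of counting only and treat peaks as independent, which neighbouring summits are not. The windows were also chosen with earlier results of these data known, so an interval that excludes 1 is a description and not a test. The order of Sall4 and Sall1 depended on the length of the window: with windows of 150% of the length the ratios were 2.31 and 2.72. With windows of 50% of the length the Sall1 ratio was 1.74 (0.562 to 4.07), an interval that includes 1, and the Sall4 ratio 4.62 (2.21 to 8.54). The interval for Sall3, with 8 peaks, includes 1, which does not decide whether peaks were in excess there.

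Each window was also set beside back-to-back stretches of the same length on its own chromosome. On chromosome 2, 12 of the 220 other stretches of 0.8 Mb held as many peaks as the Sall4 window or more, and the median stretch held 3. By comparison, on chromosome 8 the Sall1 window was matched or passed by 6 of 104 stretches of 1.2 Mb, whose median was 3.5. The Sall3 window was matched or passed by 20 of 93 stretches of 0.9 Mb, whose median was 3. The fullest stretch held 40 peaks on chromosome 2, 39 on chromosome 8 and 38 on chromosome 18, above each of the Spalt windows. Adjoining stretches were also full: 16 peaks directly above the Sall4 window and 9 directly below it. For Sall1 the adjoining stretches held 9 above and 11 below, and the next one above held 31. High counts were thus not confined to these windows, and whether they centre on the Spalt genes was not tested. The stretches adjoining the Sall3 window held 8 above and 1 below.

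**Figure D1:**
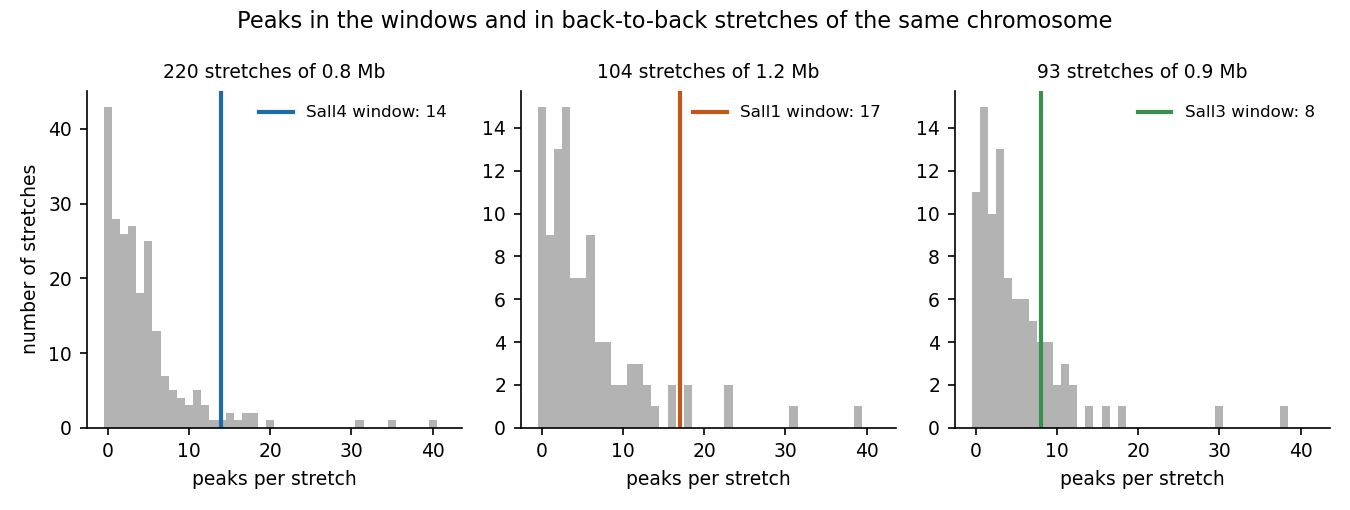
Number of peaks in back-to-back stretches as long as each window (x axis, peaks per stretch; y axis, number of stretches; grey bars), with the Spalt window as a coloured line. The Sall4 window at 14 and the Sall1 window at 17 lie in the sparse upper part of their distributions, and the Sall3 window at 8 is matched or passed by 20 of 93 stretches.

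The strongest peaks of the 3 windows were in the Sall4 window. The strongest peak of the 3 windows, at chr2:168833732-168834047, had a signal value of 82.6, which is 3.04 times the median of the list and rank 511 of 11224. It lay about 254 kb above the Sall4 position, and was the last summit of that window. The next in the Sall4 window, at chr2:168352956-168353154, had a signal of 71.9 and lay 227 kb below the gene. The third, at chr2:168460521-168460742, had a signal of 61.7 and lay 119 kb below. All 3 belonged to the 10% of listed peaks with the highest signal values, which start at 61.3, and all 3 had the score of 1000. No peak of the Sall1 or Sall3 window reached that range.

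The Sall4 peaks fell into a strong set on one side of the gene and a mostly weak set on the other. Below the gene, 6 peaks between 84.5 and 227 kb away had signal values of 28.3, 34.6, 34.8, 50.6, 61.7 and 71.9. All 6 exceeded the list median of 27.2 and all 6 had an IDR of 0.01 or below. Above the gene, 8 peaks between 10.9 and 254 kb away had signal values of 5.98, 6.49, 7.06, 12.0, 17.2, 17.6, 23.8 and 82.6. Only the last of these exceeded the list median, and 2 of the 8, those of 23.8 and 82.6, had an IDR of 0.01 or below. The weakest, at chr2:168780616-168781031, had a q-value of 0.695. The lower side held 62.0% of the summed signal of the window, and a stretch of 95.4 kb without a summit spanned the gene position. This division was noticed after the values were seen and is given as a description.

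**Figure D2:**
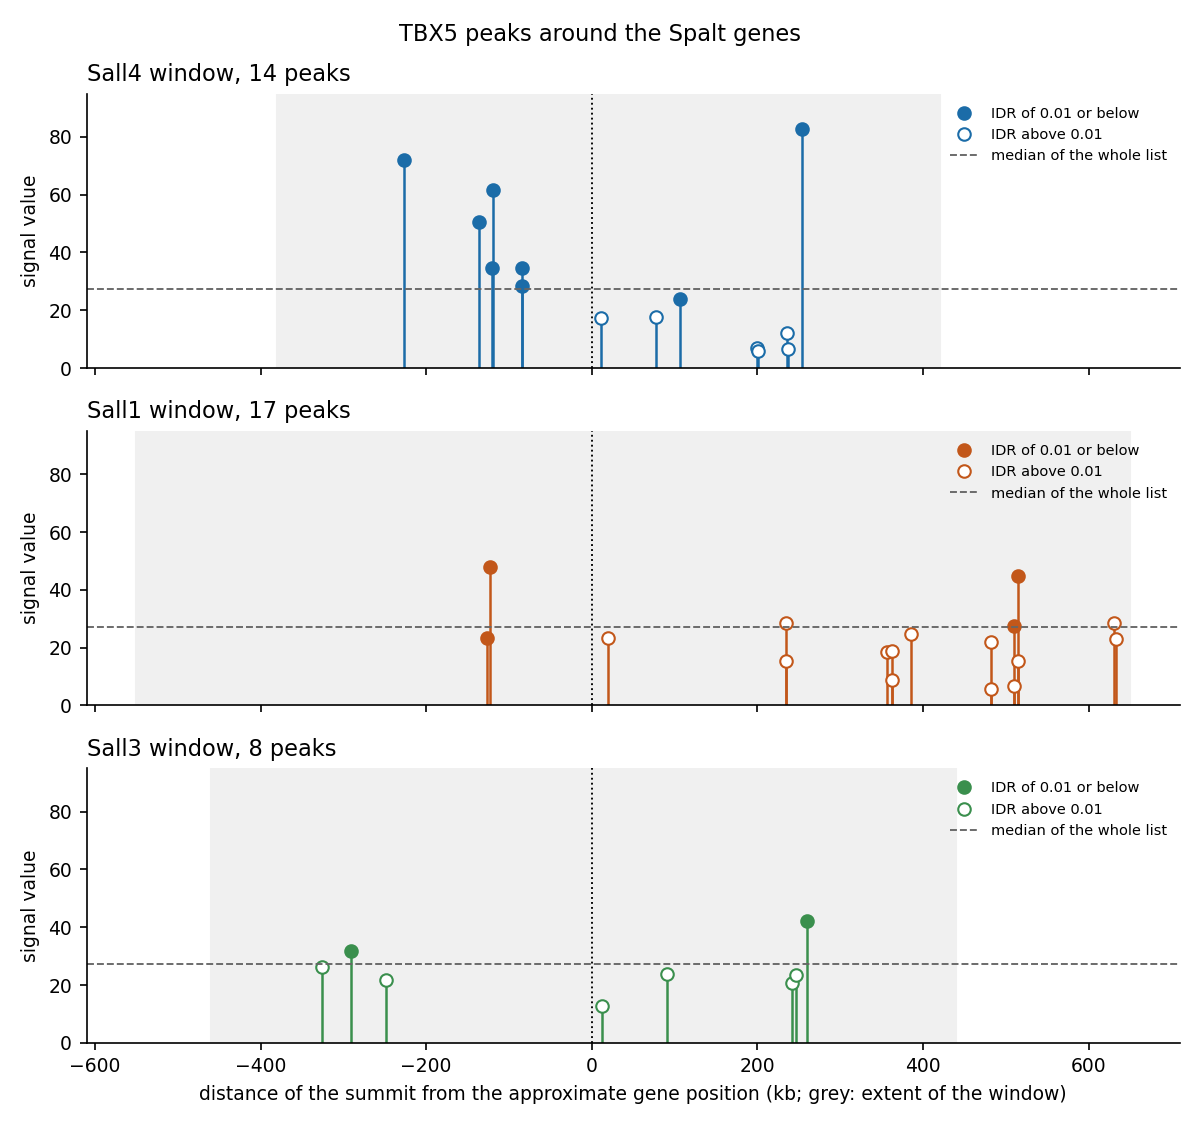
Signal value of each TBX5 peak (y axis) against the distance of its summit from the approximate gene position (x axis, kb) in the 3 windows. Filled circles have an IDR of 0.01 or below, open circles a higher one, the dashed line is the list median of 27.2, and grey marks the extent of each window. All 6 Sall4 peaks below the gene are filled and above the line, and 14 of the 17 Sall1 peaks lie 235 kb or more above that gene.

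Around Sall1, listed peaks were spread over many sites, few of them strong. The strongest peak, at chr8:91427008-91427423, had a signal value of 47.9 and a score of 1000, and lay 123 kb below the gene. The second, at chr8:92065222-92065364, had 44.8 and a score of 1000, and lay 515 kb above it. The third, at chr8:92179905-92180320, reached only 28.6 with a score of 755, an IDR of 0.0152. Of the 17 peaks, 5 exceeded the list median and 7 were below the lower quartile of 20.3. Of these 7, 5 had a stronger summit within 500 bp, and of the 12 sites left when overlapping intervals were joined, 2 were below that quartile and 5 above the list median. The weakest peak of all 3 windows, with a signal of 5.59, was at chr8:92031720-92032135.

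Most Sall1 peaks were far from the gene and on the side of higher coordinates. Only 2 peaks lay below the gene, 123 and 127 kb away, with signal values of 47.9 and 23.5. On the upper side, 14 of 15 peaks lay 235 to 633 kb away, within 398 kb of chromosome 8. These 14 peaks had a median signal of 20.2, and only 1 of them reached the score of 1000. That median includes 5 peaks with a stronger summit within 500 bp, and joining peaks within 1000 bp left 9 sites. Between them and the peak nearest to the gene, 216 kb held no summit. The lower 423 kb of the window held none either.

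Sall3 had the fewest peaks, and no pair of its summits lay within 500 bp. Its strongest peak, at chr18:81419819-81420234, had a signal value of 42.3 and a score of 1000, and lay 260 kb above the gene. The second, at chr18:80868349-80868764, had 31.6 with a score of 1000 and lay 291 kb below it. The third, at chr18:80833849-80834264, had 26.2 with a score of 826, an IDR of 0.0103 that narrowly misses 0.01. The other 5 ranged from 12.8 to 23.9, all below the list median. Peaks stood in 2 groups of 3, 248 to 326 kb below the gene and 242 to 260 kb above it, with 2 single peaks between them, and a stretch of 260 kb without a summit spanned the gene position.

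In each of the 3 windows 1 peak lay close to the gene, and it was never among the strong ones. At Sall4 the nearest peak, chr2:168590681-168591096, lay 10.9 kb above the approximate position, with a signal value of 17.2 and a score of 557, the lowest score of its window. At Sall1 it was chr8:91568887-91569302, 19.1 kb above, with a signal of 23.3 and a score of 614, which 2 of 17 peaks fell below. By signal this Sall1 peak was in the middle of its window, at rank 8 of 17 and just above the window median of 22.9. At Sall3 it was chr18:81171917-81172332, 12.1 kb above, with a signal of 12.8, the weakest of its window, and a score of 668. All 3 were below the list median, and the strongest peak of the same window was 4.80, 2.06 and 3.30 times as strong for Sall4, Sall1 and Sall3. These near-gene peaks also stood alone, with the next summit 66.4, 142 and 78.9 kb away. The genes are 18.9, 16.9 and 20 kb long in the RefSeq table and their positions here are rounded to 10 kb, so whether such a peak lies inside, at the start or just outside the gene cannot be told apart.

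Promoter sequences of GRCm38.p6 in RefSeq cover 3 starts of Sall1, while Sall4 and Sall3 have no entry in the table. The letters GTGTGA, the core that T-box proteins recognise, were searched on both strands in these windows of 250 bases before to 50 after the start. None of the 3 Sall1 windows holds them, against 14.5% of 32851 promoter windows. That says only that these letters are not in those 300 bases, and no peak of the list could be placed on them.

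**Figure D3:**
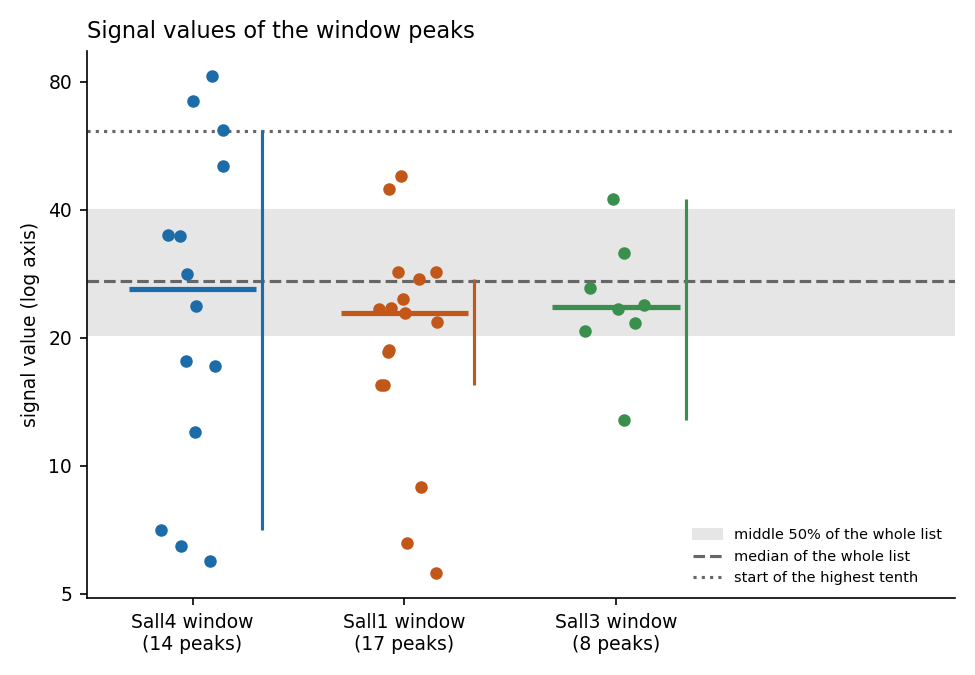
Signal value (y axis, log scale) of every peak in the 3 windows, with the median of each window as a bar and its 95% order-statistic interval as a line. Grey is the middle 50% of the whole list, the dashed line its median of 27.2 and the dotted line the start of its highest 10% at 61.3, which 3 Sall4 peaks exceed and no Sall1 or Sall3 peak reaches.

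Median signal did not separate the windows. It was 26.0 for Sall4 (exact 95% order-statistic interval over peaks 7.06 to 61.7), 22.9 for Sall1 (15.5 to 27.5) and 23.6 for Sall3 (12.8 to 42.3), against 27.2 in the whole list with quartiles of 20.3 and 40. Each interval includes the list median. The spread differed more than the middle: Sall4 values ran from 5.98 to 82.6, Sall1 values from 5.59 to 47.9 and Sall3 values from 12.8 to 42.3. On the same chromosomes outside the windows the medians were 26.6 on chromosome 2, 27.0 on chromosome 8 and 28.2 on chromosome 18.

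Median scores were 934 for Sall4, 756 for Sall1 and 804 for Sall3, where the list has 941. An IDR of 0.01 or below was reached by 8 of 14 Sall4 peaks, 4 of 17 Sall1 peaks and 2 of 8 Sall3 peaks, against 60.0% of the list. In percent these are 57.1, 23.5 and 25, so the Sall4 share is near the background and the others are below it. The highest score was reached by 7 Sall4, 2 Sall1 and 2 Sall3 peaks, against 45.4% of the list. The differences between windows were not tested, since peaks are not replicates.

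At the stricter IDR the density ratio changed little for Sall4 and was lower for Sall1 and Sall3, with overlapping intervals. Among peaks with an IDR of 0.01 or below, the Sall4 window kept 8 peaks and a density ratio of 3.11 (95% binomial interval 1.34 to 6.18). The Sall1 window kept 4 and fell from a ratio of 3.0 to 1.22 (0.330 to 3.15). The Sall3 window kept 2, with a ratio of 0.623 (0.0751 to 2.27). Of the Sall1 peaks, 13 of 17 had an IDR above 0.01, as did 6 of 14 Sall4 peaks and 6 of 8 Sall3 peaks. The interval of the ratio excluded 1 for Sall4 and included it for Sall1 and Sall3 at this limit; the difference between the windows was not tested. In the 50% of listed peaks with the stronger signal the ratios were 3.34 (1.33 to 6.93) for Sall4, 1.80 (0.580 to 4.25) for Sall1 and 0.737 (0.0888 to 2.69) for Sall3.

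**Figure D4:**
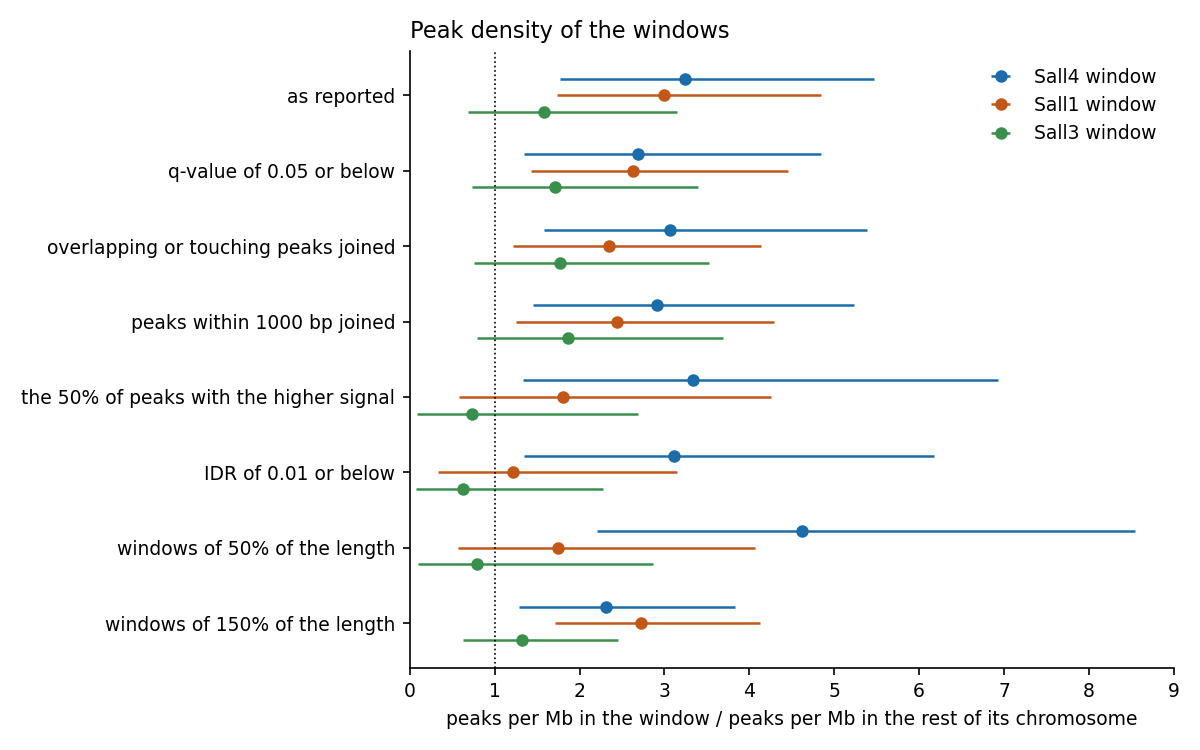
Ratio of peak density in each window to that in the rest of its chromosome (x axis) in the list as reported and under 7 alternatives (y axis), with 95% binomial intervals for counting error. Sall4 stays above 1 with its whole interval in all 8 settings, the Sall1 interval includes 1 at an IDR of 0.01 or below (ratio 1.22), in the stronger 50% of peaks (1.80) and in windows of 50% of the length (1.74), and the Sall3 interval includes 1 throughout.

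Many Sall1 and some Sall4 peaks were pairs of summits in overlapping intervals. Another summit lay within 10000 bp of 15 of 17 Sall1 peaks, 8 of 14 Sall4 peaks and 2 of 8 Sall3 peaks, against 42.7% of the list. Over the 3 windows this was 25 of 39, or 64.1% (exact 95% interval 47.2 to 78.8%). That interval treats peaks as independent, but neighbours count each other, so it is too narrow and is not a test against the list share. Another summit lay within 500 bp of 10 Sall1 peaks (58.8%), 4 Sall4 peaks (28.6%) and no Sall3 peak, against 20.1% of the list. These were 5 pairs at Sall1 and 2 at Sall4, with summits 200 to 310 bp apart. Intervals overlapped in all 7 pairs, and the weaker summit had 0.239 to 0.818 times the signal of the stronger, with a median of 0.477. Joining overlapping intervals left 12 sites at Sall4, 12 at Sall1 and 8 at Sall3, so Sall4 and Sall1, with 14 and 17 peaks, had the same number of joined sites.

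The pairs at Sall4 were unlike each other. At 168495266 and 168495482 on chromosome 2, 216 bp apart, the signal values were 34.6 and 28.3 and the scores 1000 and 868. The other pair, at 168816281 and 168816575, had signals of 12.0 and 6.49 with scores of 646 and 645. At Sall1 the pair with the most equal signals, at 91785278 and 91785490, had 28.5 and 15.5 with scores of 763 and 713. The summit at 92065282, with a signal of 44.8 and a score of 1000, had a companion 200 bp away with 15.5 and 756. At 92059835 and 92060042 the signals were 27.5 and 6.57 and the scores 887 and 592. For the remaining Sall1 pairs the scores were nearly equal although the signals were not: 18.7 and 8.90 with 671 for both at 91912815 and 91912518, and 21.8 and 5.59 with 772 and 771 at 92031618 and 92031928. In 3 of the 7 pairs in all, scores thus differed by 1 or less.

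**Figure D5:**
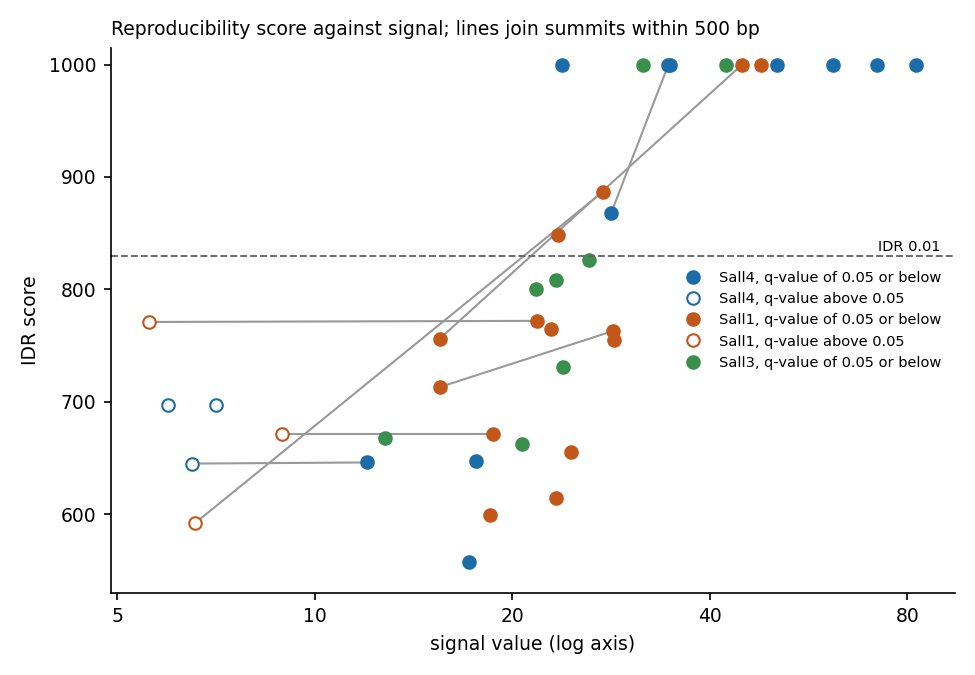
IDR score (y axis) against signal value (x axis, log scale) of the 39 window peaks, with lines joining summits within 500 bp. Open circles have a q-value above 0.05, and the dashed line marks an IDR of 0.01. Of the 6 open circles, 4 are the weaker end of a line, and 3 of the lines are nearly flat.

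On the peak caller's q-value, 33 of the 39 peaks (84.6%) were at 0.05 or below, against 93.9% of the list. The other 6 were split evenly between Sall4 and Sall1, with signal values of 5.59 to 8.90 and scores of 592 to 771. Of these, 4 had a stronger summit within 500 bp, as 544 of the 681 such peaks of the list did (79.9%). The remaining 2 were neighbours of each other at 168780150 and 168780824 on chromosome 2, with q-values of 0.499 and 0.695 and a score of 697 for both. All Sall3 peaks had a q-value below 0.05, the highest being 0.00677 for the peak nearest to the gene.

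The bounds of the windows fell between peaks. Just below the Sall4 window, 3.15 kb outside it, a summit at 168196846 had a signal value of 35.2 and a score of 1000, whereas the first summit inside was 153 kb from the bound with a signal of 71.9. Above the Sall1 window a summit at 92244594, 44.6 kb outside, had a signal of 39.1 and a score of 1000, and the last inside was 16.8 kb from the bound with 22.9. The other nearest outside summits were 64.4 to 247 kb away, with signals of 13.0 to 30.0. Listed peaks thus continued past the bounds of all 3 windows, closest to the lower bound of the Sall4 window and the upper bound of the Sall1 window.

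The narrowest peaks in these windows were strong ones. In the list 84.3% of peaks had the same width of 416 bp, and 34 of the 39 window peaks did. The 5 others (12.8%, against 15.7% of the list with another width) were narrower, at 138 to 316 bp. They were the 4 strongest Sall4 peaks, with signals of 50.6 to 82.6, and the second strongest of Sall1, with 44.8. Whether narrower peaks are stronger throughout the list was not tested.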

How the data were processed

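TBX5 ChIP-seq and input libraries of mouse forelimbs at embryonic day 10.5 (2 each, 75 bp single-end reads per the labels) are represented by 1 deposited peak list without a header, in the 10-column layout of narrowPeak. The submitters' processing notes name FastQC and mm10. The aligner, peak caller and filters are not given in the sources used here, and these steps decide the peaks included and their strength. Of the deposited columns, the IDR score (540 to 1000), the signal value of the peak caller and the −log10 q-value were used, as the authors gave them, only within the list. The deposited p-value column holds -1 throughout. Signal was not compared with input, and depth is unknown.

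Peaks were assigned to windows by summit, with positions made 1-based, in Python 3.11.15 (NumPy 2.4.6, SciPy 1.17.1, pandas 2.3.3, matplotlib 3.10.9). Density in a window was divided by that in the rest of the chromosome between its first and last summit. Intervals are exact 95% binomial (Clopper-Pearson) or order-statistic intervals over peaks. In 20 of 20 simulated lists the counts, joined sites and neighbours were recovered. The peaks named are the 3 strongest, the weakest and the one nearest to the gene in each window, and every pair within 500 bp. Windows, members and this choice were made with earlier results of these data known. Alternatives were a stricter IDR, higher signal, the q-value, joined peaks, other window lengths, interval overlap and other distances, and, added after seeing the data, windows moved to the genes of GRCm38.p6.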

Additional observations from a re-analysis of the deposited data

How the results depend on the processing

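Of 85 alternative values, 66 stayed within 1.5 times the count or within the interval of the reported value, and 19 did not; the cause was not tested beyond what each alternative removes. At an IDR of 0.01 or below the counts were 8 for Sall4, 4 for Sall1 and 2 for Sall3, the Sall1 median signal was 36.1, and the density ratios of Sall1 and Sall3 were 1.22 and 0.623. In the stronger 50% of the list by signal the counts were 7, 5 and 2 and the Sall1 median was 28.6. In this setting 42.9% of window peaks had another summit within 10000 bp, against 24.5% of all peaks. This limit and the stricter IDR only remove peaks, so lower counts follow from the limits themselves. The higher median in the stronger 50% does so too. With windows of 50% of the length, Sall1 held 5 peaks and Sall3 held 2, and the interval of the Sall1 density ratio included 1 (1.74), as it did in the stronger 50% (1.80). The share with a neighbour was 43.8% after overlapping peaks were joined (29.0% in the whole list), 38.7% after peaks within 1000 bp were joined (24.1%), 46.2% for a distance of 2000 bp (28.9%) and 87.2% for 50000 bp (66.8%). With windows moved to the genes of GRCm38.p6, an alternative added after seeing the data, Sall1 held 1 peak at a density ratio of 0.172. A q-value of 0.05 or below, windows of 150% of the length and assignment by interval overlap moved none of their 23 values. No paired analysis was possible because each peak carries 1 value for both replicates together, which also prevented leaving out a replicate. Read depth is unknown, so sites near these genes that were missed for lack of reads cannot be counted.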
